A study of Rattus norvegicus with 72 samples.

Results

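The immediate early genes are a set of 34 listed genes, chosen by name with earlier results of these data known. Of them, 33 were measured in rat liver after partial hepatectomy, out of 14506 genes on the array. In a partial hepatectomy (PHx) some lobes of the liver are cut away, after which the remaining lobes grow back. Each gene was read from its probe set with the highest mean level. Btg2, an antiproliferative regulator of RNA decay, had no probe set annotated to it alone and was dropped. The members are transcription factors of the AP-1, EGR, KLF, MYC and NR4A families, proteins of the IER and GADD45 families, secreted CCN proteins, feedback regulators, kinases and regulators of vascular or cytoskeletal signalling.

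Immediate early genes are genes whose promoters are held ready for transcription, so that growth factor, cytokine or stress signals switch them on without new protein synthesis. MAP kinases reach many of them through serum response factor (SRF) and its ternary complex partners at CArG boxes, and through CREB at cyclic AMP response elements. Their RNAs are usually unstable, and several of the proteins they encode shut the signal off again. In the liver they are known as the first transcripts to respond to resection, in the phase in which resting hepatocytes are primed to enter the cell cycle.

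The 72 arrays, 2 from each of 36 rats, measured total liver RNA from animals on 3 diets, namely chronic ethanol (EtOH), pair-fed high fat (HF) and pair-fed carbohydrate (CHO). From every animal 1 array held the liver taken out at surgery (control array), and the other held the remnant of the same liver 1, 6 or 24 h later (PHx array), so that each animal serves as its own control and each time point is a different set of animals. The analysis used the 27 animals with no array marked as an outlier by the submitters. At 1, 6 and 24 h there were 4, 4 and 3 such animals on EtOH. On HF there were 3, 2 and 3, and on CHO 3, 3 and 2. The sources used here do not give strain, age, diet composition or feeding period, and no sham-operated animals are listed in the labels, so the resection and the operation itself cannot be told apart. A 12 h time point named in the design was not analysed here.

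All values are log2 expression values, on which a difference of 1 is a doubling. Medians of the arrays lay between 4.54 and 4.76. The titles and diet tags set the groups, while the source names give HF and CHO the other way round, so statements that separate HF from CHO rest on the titles. Each time was scanned on days of its own (2 days at 1 h, 3 at 6 h and 3 at 24 h), so time and scan day cannot be told apart except through the control array of the same animal and day. A change means the PHx array minus the control array of 1 animal. The mean of the diets weights each diet equally, and calls were made in limma where p, adjusted by Benjamini and Hochberg's method across the 14506 genes, was under 0.05.

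One hour after resection almost the whole set was up. In the mean of the diets 28 of the 33 members rose and 0 fell, where 10.3% of all genes were called and 4.47% rose, and the median change was 0.93 for the members and -0.01 for all genes. Within each of the 2 scan days of this time, which held 6 and 4 animals, the mean change was called for 25 and 23 of the 33 members, where 5.90% and 2.38% of all genes were called. The largest log2 changes were those of Nr4a1 (3.26) and Apold1 (3.07), both measured from control levels below the median of the array medians, a range not shown to be above background. At 6 h 19 members were up (20.0% of all genes were) and 2 were down (19.9%). At 24 h 7 were up (16.6%) and 3 were down (17.4%). The heat map of all members shows these changes by diet.

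**Figure D1:**
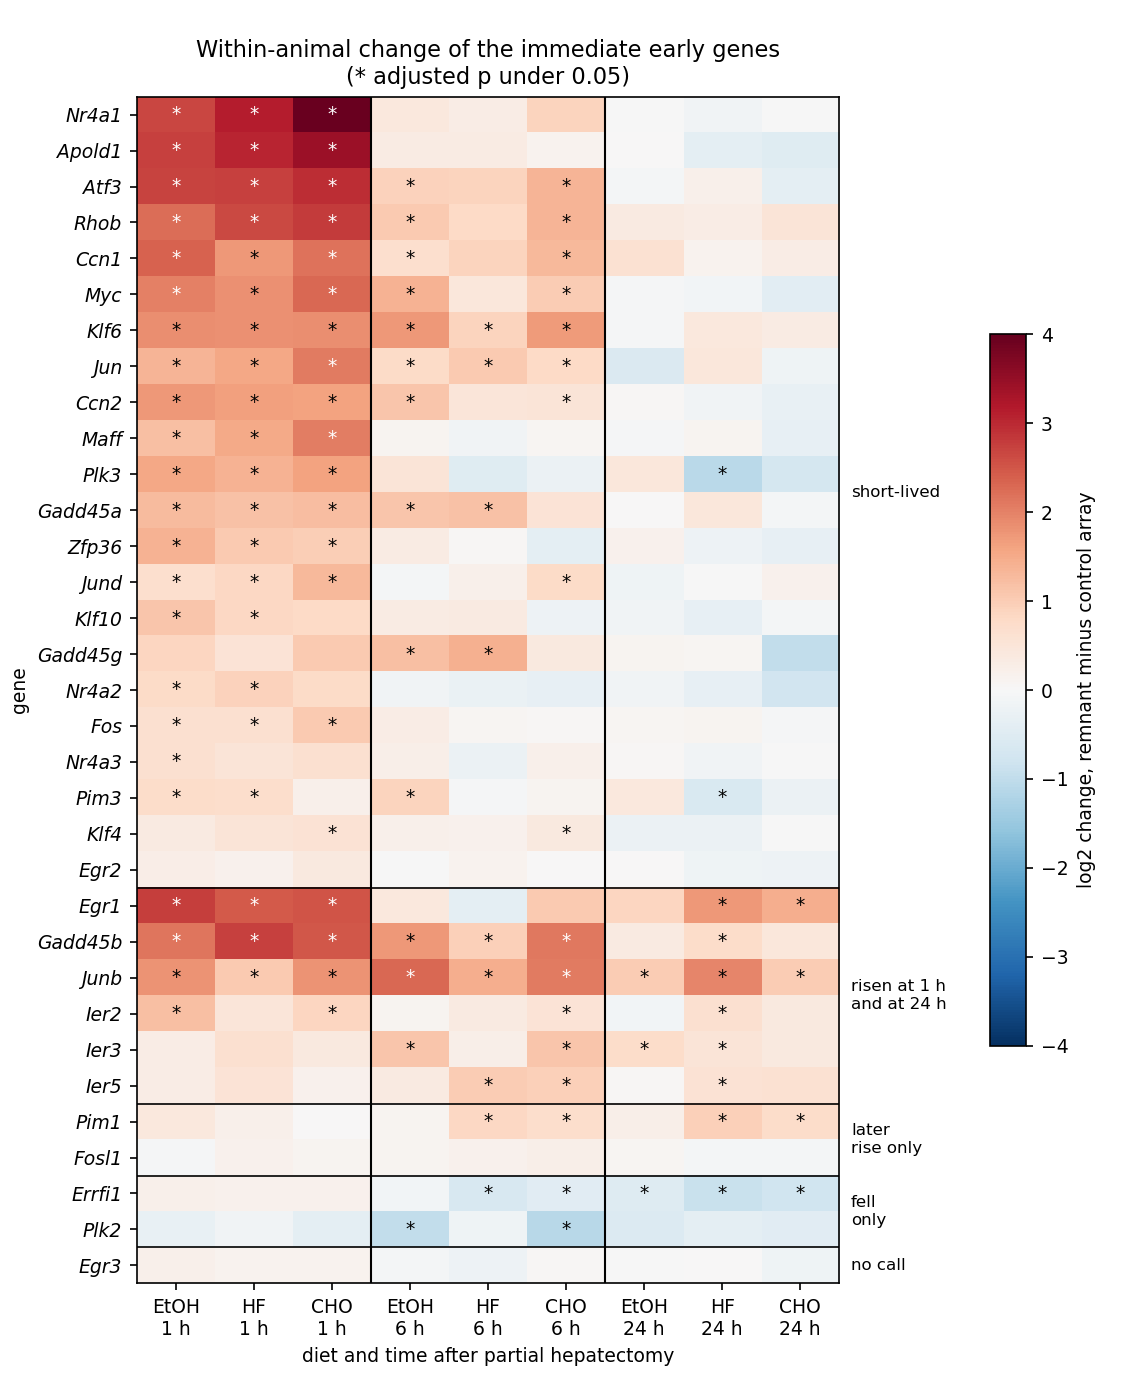
Within-animal log2 change (PHx array minus control array) of the 33 measured immediate early genes, in rows, for EtOH, HF and CHO animals at 1, 6 and 24 h, in columns. Red is a rise, blue a fall and a star an adjusted p under 0.05 (limma). Rows are grouped by time course and ordered by the change at 1 h, and the dense red block at 1 h holds 18 genes that rose in each of the 3 diets.

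All calls at 1 h had the same direction in each diet. In EtOH animals 23 members rose (1.73% of all genes did), in HF animals 21 (1.50%) and in CHO animals 20 (1.27%), with 0 falling in any diet. The genes called in either direction were 2.94%, 2.12% and 1.85% of all. Of the members, 18 rose in all 3 diets, as did 0.717% of all genes. The change lay above 0 in every one of the 10 animals for 25 members, which held for 2.52% of all genes. For 15 members every remnant level exceeded every control level of the same time, which was the case for 0.689% of all genes. In each of the 10 animals between 29 and 32 of the 33 members moved upward, and between 14 and 21 more than doubled.

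Nr4a1 encodes an orphan nuclear receptor induced by growth and stress signals. Its levels 1 h after resection were 5.62, 6.00, 6.97 and 7.17 in EtOH remnants, against 3.78, 3.85, 4.24 and 3.24 in the control arrays of the same animals. They were 6.36, 7.79 and 7.08 in HF remnants against 4.14, 4.04 and 3.57, and 7.71, 6.93 and 8.10 in CHO remnants against 3.60, 4.20 and 3.06. The lowest remnant thus lay above the highest control, and the mean change was 3.26 ± 0.19 (SE, 10 animals, adjusted p = 1.61e-12 in limma). The size of the rise nevertheless varied widely, between 1.84 and 5.03 among animals.

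The other members of the family moved less. Nr4a2 changed by 0.82 ± 0.13 at 1 h (adjusted p = 4.36e-05 in limma), with changes from 0.22 to 1.99 among the 10 animals. Nr4a3 changed by 0.60 ± 0.11 (adjusted p = 0.000297), with 9 of 10 animals above 0. For both genes remnant and control levels overlapped.

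Apold1, an early gene of vascular endothelium, lay at 6.90, 6.87, 6.12 and 7.002 in EtOH remnants, against 4.15, 3.78, 3.91 and 4.07 in their controls. In HF remnants it lay at 7.32, 8.14 and 7.15 against 4.87, 4.36 and 4.26, and in CHO remnants at 7.90, 7.16 and 7.37 against 4.56, 4.19 and 3.45. Remnants and controls were separated by more than 1 log2 unit, and the change was 3.07 ± 0.11 (adjusted p = 9.63e-17), between 2.21 and 3.92 among the animals. Rhob, a small GTPase of the endosome and the actin cytoskeleton, ranged from 8.41 over a median of 9.14 to 9.41 in the 1 h remnants, against 5.85, 6.29 and 7.26 in their controls. It rose by 2.56 ± 0.17 (adjusted p = 4.14e-11).

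Among the AP-1 factors, which bind DNA as dimers of FOS, JUN, ATF and MAF proteins, 6 of 7 members rose at 1 h. Atf3, a stress-induced factor that often represses its targets, ranged from 7.37 over a median of 7.94 to 8.71 in remnants, against 4.81, 5.03 and 5.98 in controls. Its change was 2.80 ± 0.15 (adjusted p = 9.68e-13), or 6.97-fold. Jun ranged from 8.49 over 8.97 to 9.69 in remnants, against 6.79, 7.36 and 8.15 in controls, and changed by 1.66 ± 0.12. Maff, a small MAF protein, changed by 1.59 ± 0.11 and Junb by 1.55 ± 0.11, and none of the 3 showed overlap between remnant and control levels.

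Fos, the partner of Jun in the classical AP-1 dimer, moved less on this array. Its levels were 5.45, 5.32, 5.41 and 5.10 in EtOH remnants against 4.38, 4.89, 4.84 and 4.57 in controls, 4.76, 5.61 and 5.20 in HF remnants against 4.22, 4.89 and 4.50, and 5.71, 5.07 and 5.26 in CHO remnants against 4.31, 4.39 and 4.21. All 10 animals lay above their own control, while the lowest remnant lay below the highest control, and the mean change was 0.78 ± 0.09 (adjusted p = 9.28e-07). Jund, the JUN protein of resting cells, changed by 0.93 ± 0.11. Fosl1, a FOS relative without a strong activation domain, stood at 0.09 ± 0.06 (adjusted p = 0.406) and was not called.

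Egr1, a zinc finger activator and classical SRF target, ranged from 7.85 over a median of 8.69 to 9.46 in the 1 h remnants, against 5.36, 6.04 and 6.97 in their controls, without overlap. It rose by 2.57 ± 0.23 (adjusted p = 6.47e-09), or 5.95-fold. Egr2 ranged from 3.77 over 4.02 to 4.42 in remnants, against 3.51, 3.79 and 4.01 in controls. The relatives Egr2 and Egr3 thus moved little, with changes of 0.28 ± 0.06 (adjusted p = 0.0035) and 0.15 ± 0.09 (adjusted p = 0.336).

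The KLF factors, zinc finger proteins that bind GC-rich promoters, all rose at 1 h. Klf6 ranged from 6.87 over 7.47 to 7.91 in remnants, against 5.21, 5.57 and 5.88 in controls, and its change was 1.84 ± 0.11 (adjusted p = 5.43e-12). Klf10, a TGF-beta inducible repressor, changed by 0.92 ± 0.12 and Klf4 by 0.48 ± 0.08. A second probe set of Klf4 gave 0.67 at 1 h, 0.38 at 6 h and 0.10 at 24 h, beside 0.48, 0.26 and -0.16 from the one used.

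Myc, the factor that drives ribosome synthesis and cell growth, ranged from 7.53 over 7.86 to 8.46 in the 1 h remnants, against 5.09, 5.94 and 6.65 in controls. The change was 2.05 ± 0.20 (adjusted p = 5.12e-08), or 4.14-fold, and it rose in each diet. Ccn1 and Ccn2, secreted matrix-associated proteins that signal through integrins, changed by 2.08 ± 0.15 and 1.66 ± 0.10. Neither showed overlap between remnant and control levels at 1 h.

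The GADD45 proteins, which bind stress-activated kinase regulators and cell cycle proteins, rose unequally. Gadd45b ranged from 7.42 over 8.44 to 9.32 in remnants, against 5.36, 5.97 and 7.13 in controls, and its change was 2.45 ± 0.11 (adjusted p = 5.56e-14). Gadd45a ranged from 8.84 over 9.63 to 10.10 in remnants, against 7.73, 8.24 and 8.95 in controls, and changed by 1.22 ± 0.13. Both groups overlapped slightly for Gadd45a and widely for Gadd45g, which ranged from 7.25 over 7.55 to 8.09 in remnants, against 5.84, 6.59 and 7.92 in controls. The change of Gadd45g was 0.82 ± 0.22 (adjusted p = 0.0145). For Gadd45g no single diet passed the test at 1 h, and its call was lost without HF 1 h replicate 4.

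Zfp36 (tristetraprolin), which binds AU-rich elements and speeds the decay of many early transcripts, rose by 1.14 ± 0.14 without overlap of levels. The polo-like kinase Plk3 rose by 1.51 ± 0.19, whereas its relative Plk2 had a change of -0.28 ± 0.12 (adjusted p = 0.17). Of the PIM survival kinases, Pim3 rose by 0.55 ± 0.10 and Pim1 stood at 0.21 ± 0.10 (adjusted p = 0.213). Errfi1, a feedback inhibitor of the EGF receptor family, stood at 0.18 ± 0.09 (adjusted p = 0.208).

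The immediate early response genes rose modestly at 1 h. Ier2, a nuclear protein, changed by 0.86 ± 0.10, Ier3, a regulator of survival and ERK signalling, by 0.44 ± 0.10, and Ier5 by 0.34 ± 0.11 (adjusted p = 0.0476). The Ier5 call was the least firm of the 28, since leaving out any 1 of 15 animals ended it. Those were EtOH 1 h replicates 3 and 4, all 4 EtOH animals of 6 h, EtOH 24 h replicate 2, HF 1 h replicates 1 and 2, both HF animals of 6 h, HF 24 h replicate 1, CHO 1 h replicates 1 and 4, and CHO 6 h replicate 4. The change was below 0 in 2 of the 10 animals and reached 0.97 in the highest.

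Promoter sequence was looked up for the measured members because most of them rose together within 1 h. Of the 33, 25 had a promoter in the RefSeq table of the GRCr8 build, which gives 250 bases before and 50 after 1 start for each gene. The 8 without one were Fos, Jun, Atf3, Egr3, Klf10, Myc, Nr4a3 and Ier3, so the shares below do not cover them. For 18 of the 25 the start was the outer end of the annotated gene. It lay further inside for 7 (Egr2, Klf4, Nr4a1, Nr4a2, Gadd45b, Pim3 and Apold1). The distance ran from 273 bases for Gadd45b to 52871 for Apold1 and was 760 for Egr2. Both strands were searched for the CArG box, the binding sequence of SRF, and for TGACGTCA, the cyclic AMP response element bound by CREB and ATF proteins. They were also searched for TGANTCA, the AP-1 element, for an NF-kappaB element and for TATAAA. The CArG box was present in the promoters of 4 members, Egr1, Egr2, Klf6 and Zfp36 (16.0% of 25, and 1.64% of all 33469 promoters in the table). TGACGTCA was present in 4, Jund, Maff, Ier2 and Plk2 (16.0%, and 1.83% of all). TATAAA stood in 8 (32.0%, and 14.2% of all), while TGANTCA and the NF-kappaB element stood in 0 (7.33% and 0.111% of all). No match of 1 motif overlapped a match of another. A match describes the letters only, and binding was not measured.

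These 7 promoters carry the CArG box or the cyclic AMP response element that members of different time courses share. They are printed 5′ to 3′ on the strand of the gene, and capitals mark the matches. Egr1, with 2 CArG boxes, lies at chr18:26736828-26737127 on the plus strand, and Egr2 at chr20:21054392-21054691 on the minus strand. Klf6 lies at chr17:69458429-69458728 (minus), Zfp36 at chr1:92799059-92799358 (minus), Maff at chr7:112792537-112792836 (plus), Ier2 at chr19:40399123-40399422 (plus) and Plk2 at chr2:43702286-43702585 (plus).
Egr1: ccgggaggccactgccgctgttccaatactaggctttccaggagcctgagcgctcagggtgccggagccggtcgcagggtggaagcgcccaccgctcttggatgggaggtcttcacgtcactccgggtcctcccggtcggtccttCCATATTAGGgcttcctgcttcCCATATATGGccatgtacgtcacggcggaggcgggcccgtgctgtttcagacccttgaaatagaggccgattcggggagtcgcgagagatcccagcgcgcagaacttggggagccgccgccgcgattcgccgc
Egr2: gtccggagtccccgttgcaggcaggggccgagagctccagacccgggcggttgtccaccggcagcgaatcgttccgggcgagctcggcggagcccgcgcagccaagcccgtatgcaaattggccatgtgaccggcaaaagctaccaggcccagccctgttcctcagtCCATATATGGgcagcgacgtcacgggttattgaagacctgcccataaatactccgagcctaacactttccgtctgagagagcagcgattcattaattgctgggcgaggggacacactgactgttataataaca
Klf6: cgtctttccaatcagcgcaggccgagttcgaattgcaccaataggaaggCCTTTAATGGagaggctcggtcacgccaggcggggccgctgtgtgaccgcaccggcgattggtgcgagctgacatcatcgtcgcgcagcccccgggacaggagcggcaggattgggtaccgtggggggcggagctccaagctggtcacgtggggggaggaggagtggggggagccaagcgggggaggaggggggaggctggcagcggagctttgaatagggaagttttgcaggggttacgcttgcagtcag
Zfp36: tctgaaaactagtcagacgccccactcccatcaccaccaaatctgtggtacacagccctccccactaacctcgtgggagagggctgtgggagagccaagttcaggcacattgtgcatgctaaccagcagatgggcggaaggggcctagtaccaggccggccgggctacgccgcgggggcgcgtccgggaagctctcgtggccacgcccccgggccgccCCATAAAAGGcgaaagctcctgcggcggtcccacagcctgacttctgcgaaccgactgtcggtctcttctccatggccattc
Maff: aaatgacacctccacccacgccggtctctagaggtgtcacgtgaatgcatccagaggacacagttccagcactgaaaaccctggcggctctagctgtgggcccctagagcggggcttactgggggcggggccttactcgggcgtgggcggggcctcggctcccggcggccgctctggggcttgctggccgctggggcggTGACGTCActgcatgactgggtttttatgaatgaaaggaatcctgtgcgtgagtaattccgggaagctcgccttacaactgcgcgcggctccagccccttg
Ier2: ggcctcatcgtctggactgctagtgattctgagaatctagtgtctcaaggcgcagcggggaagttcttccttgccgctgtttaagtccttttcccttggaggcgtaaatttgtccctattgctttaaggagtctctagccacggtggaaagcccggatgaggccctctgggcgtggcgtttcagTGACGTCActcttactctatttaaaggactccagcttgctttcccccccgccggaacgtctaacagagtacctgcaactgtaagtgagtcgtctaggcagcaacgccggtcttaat
Plk2: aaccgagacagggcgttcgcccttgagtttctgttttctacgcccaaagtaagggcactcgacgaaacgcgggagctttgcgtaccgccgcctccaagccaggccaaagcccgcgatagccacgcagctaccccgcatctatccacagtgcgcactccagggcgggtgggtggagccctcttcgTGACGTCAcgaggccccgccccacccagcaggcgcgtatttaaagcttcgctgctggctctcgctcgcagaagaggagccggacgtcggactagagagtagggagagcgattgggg
The nearer CArG box of Egr1 and that of Egr2 begin at the same distance, 83 bases before the start that the table uses, and have the same letters, CCATATATGG. The changes of the 2 genes at 1 h were 2.57 and 0.28. In Ier2 and Plk2 the element TGACGTCA begins 66 bases before the start in both, although Ier2 rose at 1 h and Plk2 fell at 6 h and 24 h. The start used for Egr2 lay 760 bases inside the annotated gene. Its 1 h levels in remnants and controls all lay below the lowest array median of 4.54, a range not shown to be above background. Whether the motifs bear on the changes was not tested.

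At 6 h the set had partly returned to the control level. In the mean of the diets 19 members were up (20.0% of all genes were) and 2 were down (19.9% were), with 39.9% of all genes called. The count of members up thus stands against a large background at this time. The median change of the members was 0.34, against -0.003 for all genes. Within scan days 1, 2 and 3, which held 3, 5 and 1 animals, 11, 18 and 9 of the 33 members were called, where 29.3%, 33.2% and 10.2% of all genes were. Scan day 3 held a CHO animal only, and its test takes the spread between animals from the other days. Between 1 h and 6 h the response became lower for 21 members (14.9% of all genes did so) and higher for 2 (17.7% did so). Because the 2 times are different animals, these are differences between groups and not courses within an animal.

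Junb was the member furthest up at 6 h. Its levels were 8.09, 8.21, 8.20 and 8.18 in EtOH remnants against 6.02, 5.84, 5.77 and 5.83 in their controls, 7.88 and 7.86 in HF remnants against 6.62 and 6.20, and 8.23, 8.20 and 8.41 in CHO remnants against 6.04, 6.65 and 5.91. The 9 remnant levels lay between 7.86 and 8.41, and none overlapped a control. The change of 1.95 ± 0.12 (adjusted p = 2.77e-13 in limma) did not differ by the test from that at 1 h (difference 0.40 ± 0.16, adjusted p = 0.0592).

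Gadd45b at 1.61 ± 0.12 and Klf6 at 1.45 ± 0.12 came next. Klf6 remnants ranged from 6.36 over 7.15 to 7.49, against 5.13, 5.39 and 6.09 in controls, without overlap. The lowest change of Klf6 was 0.27, in 1 of the 2 HF animals, and the other HF animal had 1.52. Rhob (1.07 ± 0.19), Atf3 (1.07 ± 0.17), Gadd45g (1.01 ± 0.24), Myc (0.95 ± 0.22), Gadd45a (0.95 ± 0.14), Ccn1 (0.94 ± 0.17) and Jun (0.86 ± 0.13) were also up at 6 h.

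Myc was uneven at 6 h. The changes were 1.71, 1.16, 1.13 and 1.61 in EtOH animals, -0.44 and 1.32 in HF animals and -0.52, 1.59 and 1.97 in CHO animals. All 4 EtOH animals lay above 0, while 1 HF and 1 CHO animal lay below 0, and none of the differences in response between diets was called for Myc.

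Other members had a lower response at 6 h than at 1 h by the test. Most of these were not called at 6 h in the mean of the diets, although Jund rose in 1 diet. Apold1, at 3.07 ± 0.11 at 1 h, stood at 0.26 ± 0.12 at 6 h (adjusted p = 0.0774), a difference of -2.80 ± 0.16 (adjusted p = 8.24e-13). Nr4a1 remained up by 0.53 ± 0.20 (adjusted p = 0.0359), a call that was lost without EtOH 6 h replicate 2 or 3, either of the 2 HF animals, or CHO 6 h replicate 2 or 3. Fos (0.14 ± 0.10), Maff (0.02 ± 0.12), Zfp36 (-0.00 ± 0.15), Plk3 (-0.06 ± 0.21), Klf10 (0.16 ± 0.13), Jund (0.29 ± 0.12), Egr2 (0.04 ± 0.07), Nr4a2 (-0.25 ± 0.14) and Nr4a3 (0.06 ± 0.12) were not called at 6 h.

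Egr1 was not called at 6 h either, at 0.36 ± 0.25 (adjusted p = 0.292), and its animals disagreed in sign. The changes were -0.53, 1.76, 1.62 and -1.12 in EtOH animals, -0.72 and -0.08 in HF animals and 1.56, 1.16 and 0.40 in CHO animals. Both directions occurred among the 4 EtOH animals, and all 3 CHO animals lay above 0.

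Ier3 and Ier5 were the 2 members whose response was higher at 6 h than at 1 h. Ier3 stood at 0.82 ± 0.11 at 6 h (difference 0.39 ± 0.15, adjusted p = 0.0486), and Ier5 at 0.78 ± 0.12 (difference 0.43 ± 0.16, adjusted p = 0.0456). Both differences lay near the threshold and were lost in 24 and 19 of the 37 other settings tried. Pim1 was called first at 6 h, at 0.54 ± 0.11 (adjusted p = 0.000176), with changes of 0.01 to 0.14 in the 4 EtOH animals, 0.74 and 0.90 in the HF animals and 0.38 to 1.26 in the CHO animals. Fosl1 was called at 6 h only, at 0.17 ± 0.06 (adjusted p = 0.0222), from a mean level below the median of the array medians. That call was lost without HF 6 h replicate 3 or CHO 6 h replicate 2, with no replicate block, and with the replicate number or the scan day as a block.

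The 2 members that fell at 6 h were Plk2 and Errfi1. Plk2 levels were 7.53, 7.21, 7.53 and 7.40 in EtOH remnants against 8.59, 8.11, 8.54 and 8.31 in controls, 7.999 and 7.86 in HF remnants against 8.03 and 8.15, and 7.41, 7.32 and 7.05 in CHO remnants against 8.08, 8.44 and 8.57. Every remnant lay below every control, which held for 1 member and for 7.94% of all genes. The change was -0.74 ± 0.13 (adjusted p = 4.1e-05), while the 2 HF animals showed only -0.03 and -0.29. Errfi1, lower in 8 of 9 animals, had a change of -0.41 ± 0.09 (adjusted p = 0.000692).

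Within diets at 6 h, 13 members rose and 1 fell in EtOH animals (16.5% and 17.8% of all genes did so), 8 rose and 1 fell in HF animals (10.0% and 9.30%), and 15 rose and 2 fell in CHO animals (14.8% and 14.3%). Junb, Klf6, Jun and Gadd45b were the 4 that rose in all 3 diets, as did 7.82% of all genes. The HF group held 2 animals at this time, and its count of 9 called members became 2 without HF 6 h replicate 3 and 4 without HF 6 h replicate 4. Changes above 0 in all 9 animals were found for 11 members (13.9% of all genes), and levels without overlap above the controls for 5, namely Junb, Klf6, Ier5, Gadd45b and Rhob (8.50%).

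At 24 h 7 members were up (16.6% of all genes were) and 3 were down (17.4% were), together 10 of 33, where 34.1% of all genes were called. Within scan days 4, 5 and 6, which held 5, 1 and 2 animals, 5, 0 and 7 of the 33 members were called, where 26.3%, 1.00% and 18.1% of all genes were. Scan day 5 held 1 EtOH animal, tested in the same way. The median change was -0.07 for the members and -0.03 for all genes. Compared with 1 h, the response was lower for 26 members (12.7% of all genes) and higher for 1, Pim1 (15.4%). Compared with 6 h it was lower for 12 (14.4%) and higher for 1, Egr1 (14.6%).

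**Figure D2:**
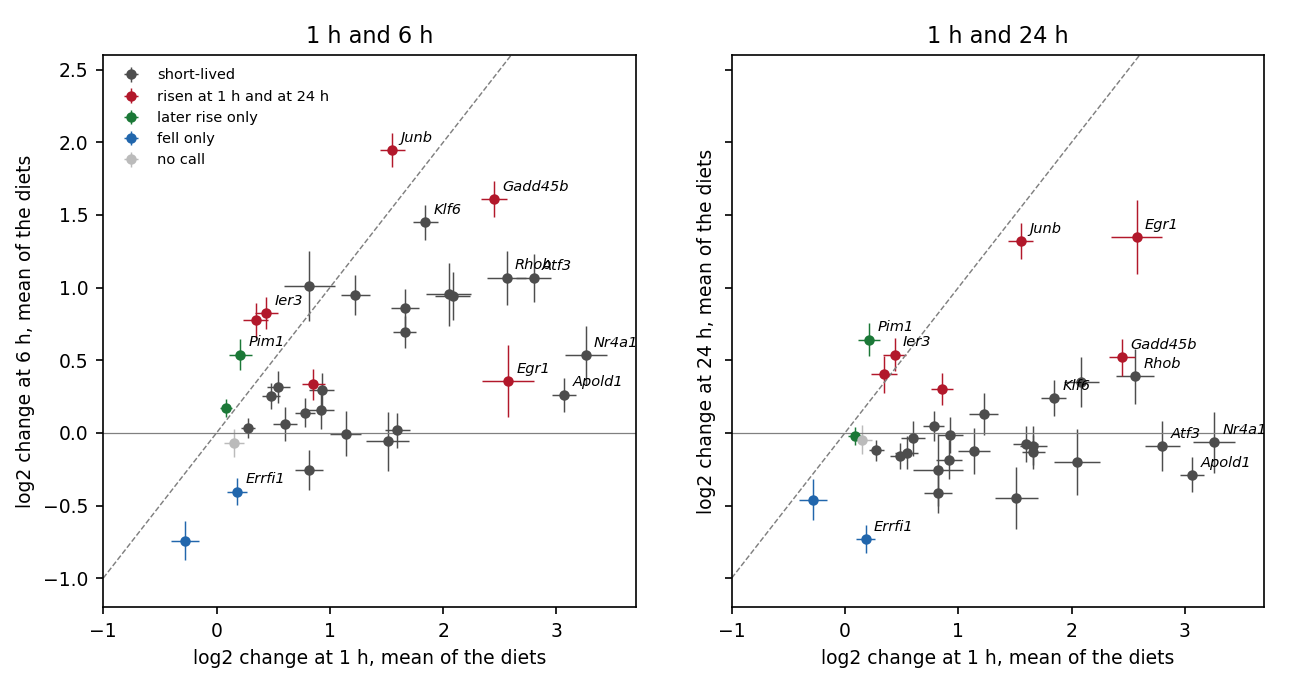
Log2 change in the mean of the diets at 1 h (horizontal axis) against that at 6 h (left) and at 24 h (right) for the 33 immediate early genes. Points are means and bars are SE from limma, the dashed line marks equal change at both times, and colours mark the time course. Most points that lie far to the right at 1 h lie near 0 at 24 h, with Junb at 1.32 and Egr1 at 1.35 well above the rest.

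By the calls in the mean of the diets, 22 members were short-lived, meaning that they rose at 1 h, were not up at 24 h and had a lower response at 24 h than at 1 h by the test. Another 6 rose at 1 h and were up at 24 h. Pim1 and Fosl1 rose later only, Errfi1 and Plk2 only fell, and Egr3 was never called. The line between short-lived members and those up at 24 h is a threshold. At 24 h the short-lived Rhob stood at 0.39 and Ccn1 at 0.35, neither called, while Ier2 was called at 0.30. With all 36 animals Rhob, Ccn1 and Klf6 were up at 24 h as well, and Ier2 was not. Of the 28 members that rose at 1 h 78.6% were short-lived, against 58.9% of all 649 genes that rose at 1 h. The share still or again up at 24 h was 21.4% for the members and 22.8% for those 649 genes.

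Among the 22 short-lived members, 12 were still up at 6 h (Nr4a1, Atf3, Rhob, Ccn1, Myc, Klf6, Jun, Ccn2, Gadd45a, Gadd45g, Pim3 and Klf4) and 10 were not (Apold1, Maff, Plk3, Zfp36, Jund, Klf10, Nr4a2, Fos, Nr4a3 and Egr2). The AP-1 factors fell on both sides, with Atf3 and Jun among the 12 and Fos, Maff and Jund among the 10. For Gadd45g and Klf6 the difference between 6 h and 1 h was not called, with changes of 0.82 at 1 h and 1.01 at 6 h for Gadd45g and of 1.84 and 1.45 for Klf6. The difference between 24 h and 6 h was -1.26 ± 0.35 for Gadd45g (adjusted p = 0.00626) and -1.21 ± 0.17 for Klf6 (adjusted p = 5.01e-06). Nr4a2 was the short-lived member that fell below its controls at 24 h, with a change of -0.41 ± 0.14 (adjusted p = 0.024), a call that was lost without EtOH 24 h replicate 2, HF 24 h replicate 1 or CHO 24 h replicate 2.

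Junb was one of the 6 members that were up at both ends. At 24 h its levels were 7.04, 7.37 and 7.48 in EtOH remnants against 6.33, 6.37 and 6.20 in controls, 7.97, 7.91 and 7.67 in HF remnants against 5.61, 6.24 and 5.88, and 6.83 and 7.77 in CHO remnants against 6.32 and 6.24. It was the single member with levels apart from the controls at 24 h (3.66% of all genes) and the single one that rose in all 3 diets (3.76%). The change was 1.55 ± 0.11 at 1 h, 1.95 ± 0.12 at 6 h and 1.32 ± 0.12 at 24 h (adjusted p = 1.72e-09), and the 24 h response did not differ from that at 1 h by the test (difference -0.23 ± 0.16, adjusted p = 0.331).

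Egr1 was up at 1 h and at 24 h, but not called at 6 h. After 2.57 at 1 h and 0.36 at 6 h it stood at 1.35 ± 0.26 at 24 h (adjusted p = 0.000125), higher than at 6 h by 0.99 ± 0.36 (adjusted p = 0.0366). The 24 h changes were 0.18, 0.89 and 1.49 in EtOH animals, 1.87, 1.46 and 1.92 in HF animals and 0.62 and 2.26 in CHO animals, so that all 8 animals lay above 0. Remnant levels of 6.77 to 8.34 overlapped slightly with control levels of 5.73 to 6.83. The difference between 24 h and 6 h was called with all 27 animals but lost in 9 of the 27 repeats that left out 1 of them. Those animals were CHO 24 h replicate 4, CHO 6 h replicate 4, HF 24 h replicates 1 and 4, HF 6 h replicate 3, EtOH 24 h replicates 2 and 3 and EtOH 6 h replicates 1 and 4.

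Gadd45b declined over the sampled times, with changes of 2.45 ± 0.11, 1.61 ± 0.12 and 0.52 ± 0.13 (adjusted p = 0.00207 at 24 h). All 8 animals lay above 0 at 24 h, between 0.06 and 1.07, while levels overlapped. Ier3 stood at 0.54 ± 0.11 at 24 h (adjusted p = 0.000444), with changes of 0.69, 0.52 and 0.95 in EtOH animals, 0.69, 0.61 and 0.25 in HF animals and 0.67 and 0.09 in CHO animals. All were above 0.

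Ier2 at 0.30 ± 0.11 (adjusted p = 0.0341) and Ier5 at 0.40 ± 0.13 (adjusted p = 0.0137) had the smallest changes of the 6 at 24 h. Ier2 was lost without EtOH 24 h replicate 3, HF 24 h replicate 1, HF 24 h replicate 4 or CHO 24 h replicate 2, and Ier5 without CHO 24 h replicate 4. Pim1, one of the late members, stood at 0.64 ± 0.11 at 24 h (adjusted p = 5.11e-05), with changes of 0.34, 0.42 and -0.08 in EtOH animals, 0.75, 0.68 and 1.47 in HF animals and 0.40 and 1.06 in CHO animals. The EtOH values were low, although the highest exceeded the lowest CHO value, and the difference in response between EtOH and either control diet was not called.

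Errfi1 fell furthest at 24 h, with a change of -0.73 ± 0.10 (adjusted p = 7.45e-07). Its levels were 11.65, 11.46 and 11.87 in EtOH remnants against 12.33, 12.20 and 11.99 in controls, 11.69, 10.90 and 11.73 in HF remnants against 12.29, 12.47 and 12.24, and 11.70 and 11.26 in CHO remnants against 12.35 and 12.19. All 8 animals lay below 0, every remnant lay below every control (3.11% of all genes), and the fall was called in each diet. Plk2 changed by -0.46 ± 0.14 (adjusted p = 0.011), but its 8 animals ranged from -1.34 to 0.46, and the call was lost without CHO 24 h replicate 4.

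Within diets at 24 h, 2 members rose and 1 fell in EtOH animals (5.51% and 8.68% of all genes), 7 rose and 3 fell in HF animals (14.1% and 10.8%), and 3 rose and 1 fell in CHO animals (9.73% and 6.92%). The risen members were Junb and Ier3 in EtOH animals, Junb, Egr1, Ier2, Ier3, Ier5, Gadd45b and Pim1 in HF animals, and Junb, Egr1 and Pim1 in CHO animals. Besides Errfi1, Plk3 at -1.08 and Pim3 at -0.60 fell in HF animals. Changes above 0 in all 8 animals were found for 4 members (7.59% of all genes).

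**Figure D3:**
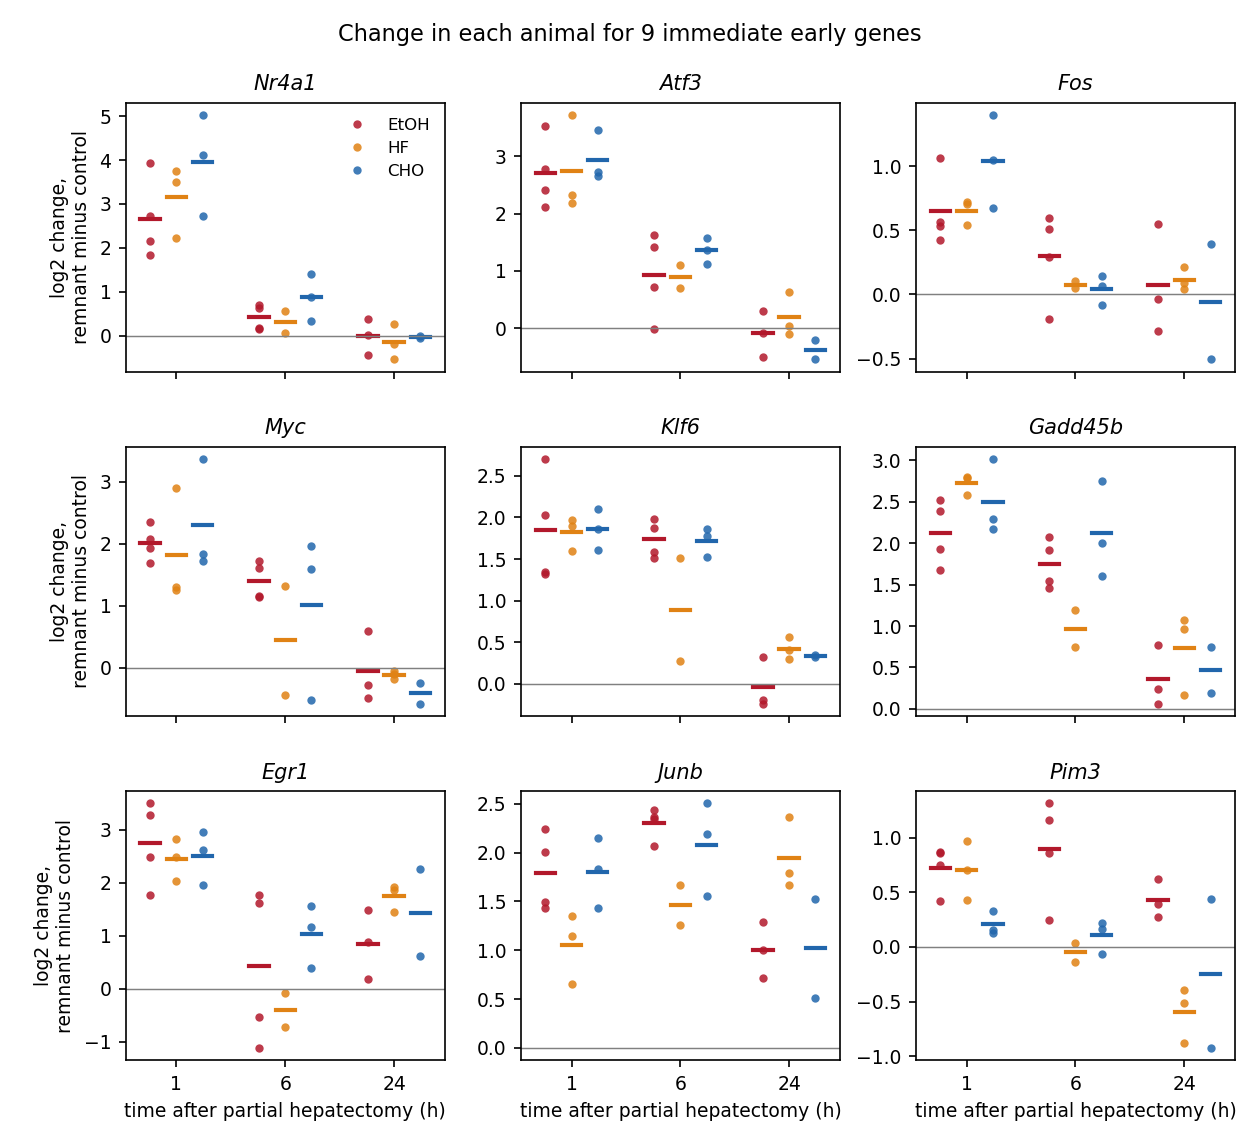
Log2 change (PHx array minus control array, vertical axis) in each of the 27 animals at 1, 6 and 24 h (horizontal axis) for 9 immediate early genes, with EtOH left of HF and CHO at each time. Points are animals and short lines are group means. Nr4a1 ranges from 1.84 to 5.03 at 1 h and closes in on 0 by 24 h, Junb stays above 0 in all animals, and Egr1 scatters from -1.12 to 1.76 at 6 h.

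Whether chronic ethanol alters the early response, the comparison named in the series title, was tested as the difference in response between diets. At 1 h 0 members differed between any pair of diets, as did 0% of all genes. At an unadjusted p under 0.05, 6 members differed between EtOH and CHO (3.62% of all genes did), 3 between EtOH and HF (3.28%) and 1 between HF and CHO (3.10%). The intervals were wide, since the 95% confidence intervals of the members reached a median of 0.55 to either side of the difference for EtOH minus CHO and EtOH minus HF and 0.59 for HF minus CHO. These intervals are not adjusted for the number of genes, and the absence of calls does not show that the diets respond alike. The largest difference at 1 h was that of Nr4a1, at 2.66 ± 0.29 in EtOH and 3.96 ± 0.34 in CHO animals (difference -1.30 ± 0.44), which was not called.

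At 6 h 0 members differed in any pair, where 2.05% of all genes differed between EtOH and HF (0.558% higher in EtOH), 1.88% between EtOH and CHO (0.731% higher) and 0% between HF and CHO. At an unadjusted p under 0.05 there were 10, 6 and 5 such members, where 12.3%, 11.7% and 5.32% of all genes passed. The nearest to a call was Pim3, with changes of 1.16, 1.31, 0.25 and 0.86 in EtOH animals, -0.13 and 0.04 in HF animals and 0.22, 0.17 and -0.07 in CHO animals. The EtOH animals were all above the HF and CHO animals. The difference in response was 0.94 ± 0.27 for EtOH minus HF (adjusted p = 0.0724) and 0.79 ± 0.24 for EtOH minus CHO (adjusted p = 0.0991).

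At 24 h 2 members, Pim3 and Junb, differed between EtOH and HF, where 5.00% of all genes did so, and 0 differed between EtOH and CHO (2.94%) or between HF and CHO (0%). At an unadjusted p under 0.05 there were 6, 2 and 1, where 17.2%, 14.8% and 3.93% of all genes passed. Pim3 had changes of 0.27, 0.40 and 0.62 in EtOH animals, against -0.88, -0.52 and -0.40 in HF animals, a difference of 1.03 ± 0.26 (adjusted p = 0.0175). The groups moved in opposite directions and did not overlap. The remnant levels themselves were alike in range, at 7.31, 7.21 and 7.61 in EtOH and 7.30, 7.45 and 7.61 in HF animals, whereas the control levels were 7.04, 6.82 and 6.99 in EtOH and 8.17, 7.96 and 8.01 in HF animals. Without EtOH 24 h replicate 3 or HF 24 h replicate 1 the call was lost.

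Junb had the opposite sign, with changes of 0.71, 1.00 and 1.29 in EtOH animals, against 2.36, 1.67 and 1.79 in HF animals. The difference was -0.94 ± 0.28 (adjusted p = 0.0463), with no overlap. Here the remnant levels differed, at 7.04 to 7.48 in EtOH and 7.67 to 7.97 in HF animals. The call lay at the threshold and was lost in 23 of the 37 other settings tried, 15 of which left out 1 animal. Those were CHO 1 h and CHO 6 h replicate 2, HF 1 h replicate 4, both HF animals of 6 h, HF 24 h replicates 1 and 4, EtOH 1 h replicate 2, all 4 EtOH animals of 6 h and all 3 of 24 h. At 6 h the order was the other way, with 2.30 ± 0.17 in EtOH and 1.46 ± 0.24 in HF animals (difference 0.84 ± 0.29, adjusted p = 0.167).

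Before surgery the members were not all at the same level in the 3 diets. In limma with the scan day as a block, EtOH controls (12 arrays) had 3 members higher and 2 lower than CHO controls (8 arrays), where 6.35% and 5.46% of all genes differed so. They had 3 higher and 5 lower than HF controls (9 arrays), where 7.41% and 6.05% did. Between HF and CHO controls 0 members differed (0.165% of all genes) and 6 did at an unadjusted p under 0.05 (6.97% of all genes). Jund, Ier2 and Ier5 were higher in EtOH livers than in both others, and Pim3 and Errfi1 were lower than in both. Of 12 macrophage markers, 4 were higher in EtOH than in CHO controls and 8 higher than in HF controls, with 0 lower in either comparison. The part of this shift in the levels of the members was not tested.

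Jund ranged from 6.75 over a median of 7.33 to 7.87 in EtOH controls, from 6.62 over 6.90 to 7.49 in HF controls and from 6.20 over 6.56 to 6.76 in CHO controls. The EtOH and CHO ranges met only at their ends, and the EtOH minus CHO difference was 0.82 ± 0.13 (adjusted p = 0.000102), or 1.76-fold. In the 1 h remnants Jund reached similar levels in all diets, 7.75 to 8.14 in EtOH, 7.69 to 7.97 in HF and 7.73 to 7.88 in CHO animals. Its change at 1 h was 0.66 ± 0.18 in EtOH and 1.31 ± 0.20 in CHO animals, and the difference between them was not called.

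Ier5 averaged 6.58 ± 0.14 in EtOH, 6.20 ± 0.25 in HF and 6.10 ± 0.15 in CHO controls (SD, n = 12, 9 and 8), and EtOH exceeded CHO by 0.44 ± 0.09 (adjusted p = 0.00122 in limma). Every EtOH array was above every CHO array. Ier2 in EtOH controls exceeded that in CHO controls by 0.48 ± 0.13 (adjusted p = 0.0142) and that in HF controls by 0.40 ± 0.12 (adjusted p = 0.0233).

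Pim3 averaged 6.96 ± 0.19 in EtOH, 7.66 ± 0.40 in HF and 7.59 ± 0.37 in CHO controls (SD). The difference was -0.68 ± 0.13 for EtOH minus HF (adjusted p = 0.000726) and -0.65 ± 0.15 for EtOH minus CHO (adjusted p = 0.00341). Plk3 ranged from 4.69 over 5.41 to 6.03 in EtOH and from 5.65 over 6.26 to 6.99 in HF controls, a difference of -0.90 ± 0.18 (adjusted p = 0.000974). The ranges overlapped for both genes.

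Ier3 (-0.49 ± 0.15, adjusted p = 0.0285), Ccn1 (-0.47 ± 0.16, adjusted p = 0.0468), Errfi1 (-0.18 ± 0.06, adjusted p = 0.0361) and Jund (0.36 ± 0.12, adjusted p = 0.0444) completed the differences between EtOH and HF controls. These 4 lay close to the threshold, and the count of 8 fell to between 4 and 5 when any 1 of 10 arrays was left out. Those arrays were EtOH 6 h replicates 3 and 4, EtOH 24 h replicate 4, HF 1 h replicates 1 and 2, HF 6 h replicates 2, 3 and 4, and HF 24 h replicates 2 and 4.

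**Figure D4:**
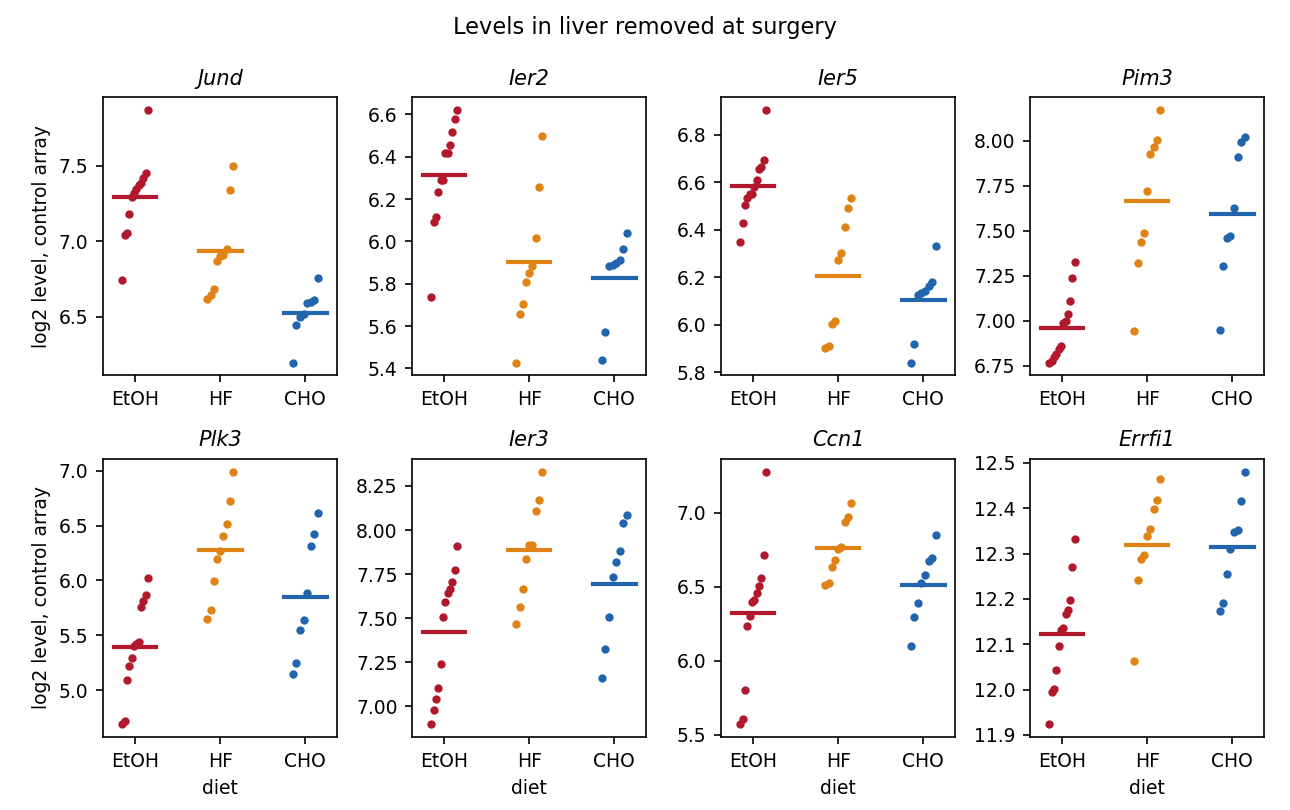
Log2 level on the control arrays (vertical axis) by diet (horizontal axis, 12 EtOH, 9 HF and 8 CHO arrays) for the 8 immediate early genes that differed between EtOH and at least 1 other diet before surgery. Points are arrays and lines are means. Jund, Ier2 and Ier5 sit higher in EtOH livers, and Pim3, Plk3 and Errfi1 sit lower, with means of 6.96 for Pim3 in EtOH against 7.66 in HF livers.

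Animals of 1 diet and time differed from each other more in these genes than in most. The residual SD of the change between animals, pooled over the 9 groups, had a median of 0.39 over the members and 0.23 over all genes. It exceeded the median of all genes for 31 of the 33 members and their 90th percentile of 0.35 for 25. The least variable members were Fosl1 (0.15), Egr2 (0.18) and Klf4 (0.27). For Fosl1 and Egr2 the mean level lay below the median of the array medians in controls and in 1 h remnants, a range not shown to be above background. The most variable were Egr1 (0.83), Gadd45g (0.81), Myc (0.74), Plk3 (0.69) and Nr4a1 (0.68).

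**Figure D5:**
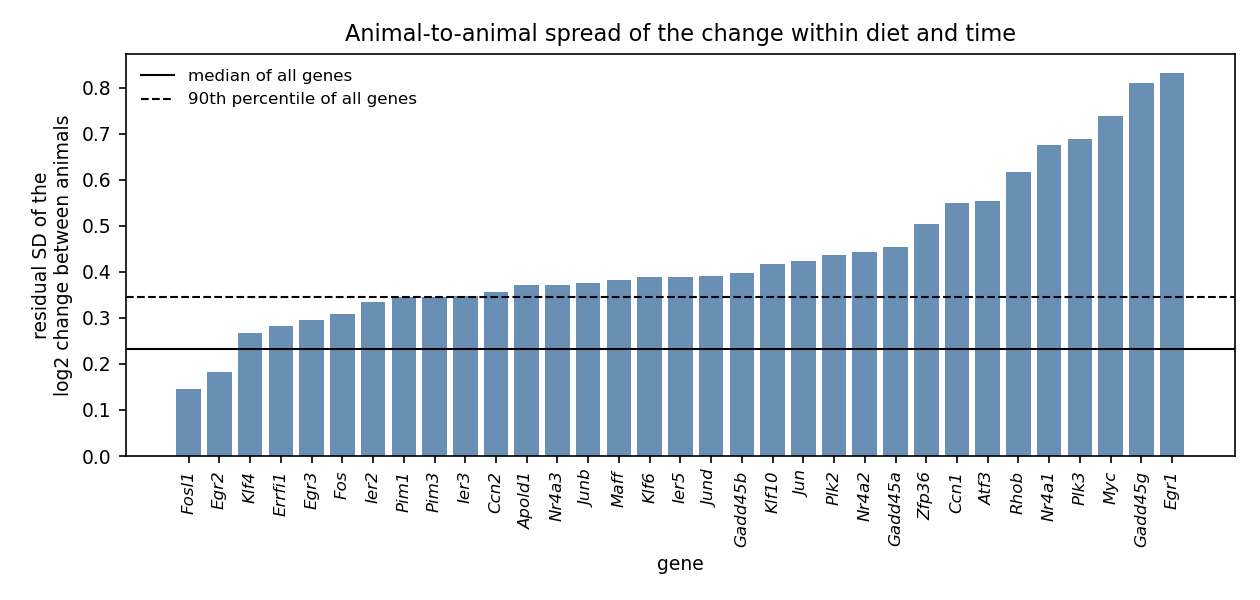
Residual SD of the log2 change between animals of the same diet and time (vertical axis, 27 animals in 9 groups) for each immediate early gene, from the least to the most variable. The solid line is the median of all genes at 0.23 and the dashed line their 90th percentile at 0.35. The bars of 25 genes reach above the dashed line, and Egr1 is highest at 0.83.

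Where the spread lay differed between members. For Nr4a1 the SD of the change was 0.97 among the 1 h animals, 0.40 among the 6 h animals and 0.37 among the 24 h animals. For Egr1 it was 0.62, 1.11 and 0.68, and for Gadd45g 0.47, 0.98 and 0.96. Nr4a1 was thus least even when it was highest, while Egr1 and Gadd45g were least even at later times. Control levels varied too, in a separate fit with the scan day as a block. Their residual SD had a median of 0.29 over the members and 0.17 over all genes. It was 0.68 for Gadd45g, 0.50 for Myc and 0.48 for Egr1, but 0.19 for Nr4a1. The mean control level of Nr4a1 lay below the median of the array medians. How far the spread of the changes goes back to that of the controls was not tested.

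Some members were dim. The mean control level of 8 members lay below the median of the array medians, and that of 3 (Fosl1, Egr2 and Nr4a3) did so in the 1 h remnants as well. The tables hold no detection calls, so a level in that range is not shown to be above background, and the changes of Nr4a1, Apold1, Maff, Fos and Nr4a2 at 1 h start from such a level.

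Other genes of the same pathways were listed by function. Over all genes 4.47% rose and 5.83% fell at 1 h, 20.0% and 19.9% at 6 h, and 16.6% and 17.4% at 24 h. The counts of this list and of those that follow stand beside these shares. Of 17 further AP-1, SRF and CREB factors, 6 rose and 1 fell at 1 h, 8 rose and 3 fell at 6 h, and 0 rose and 7 fell at 24 h, with medians of 0.06, 0.07 and -0.12. The genes named from each list are among the 2 with the smallest p at 1 h, 6 h or 24 h. Fosl2, an AP-1 subunit, changed by 1.11 at 1 h (adjusted p = 1.5e-12), the small MAF protein Mafk by 1.01, and Srf itself by 0.87 at 1 h and 0.90 at 6 h. Crem, a cyclic AMP responsive regulator, changed by 0.55 at 1 h and 1.04 at 6 h.

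Of 14 feedback inhibitors of MAP kinase signalling, 7 rose and 1 fell at 1 h, 5 rose and 3 fell at 6 h, and 2 rose and 3 fell at 24 h, with medians of 0.25, 0.18 and -0.18. They are phosphatases of the DUSP family and SPRY and SPRED proteins. Dusp8 changed by 1.63 at 1 h and 1.05 at 6 h, and Dusp6 was up later, by 1.48 at 6 h and 1.02 at 24 h. Dusp1, itself an early gene, changed by 1.37 at 1 h, -1.36 at 6 h and -1.89 at 24 h, all 3 called.

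Of 17 MAP kinases and upstream kinases, 2 rose and 1 fell at 1 h, 6 rose and 5 fell at 6 h, and 2 rose and 5 fell at 24 h. Mapkapk2, a kinase downstream of p38, changed by 0.76 at 1 h and 1.04 at 6 h. Of 7 MYC partners and antagonists, 2 rose at 1 h, 2 rose and 3 fell at 6 h, and 1 rose and 2 fell at 24 h. Mxi1 and Mxd4, MAX-binding antagonists of MYC, changed by -1.46 and -0.51 at 6 h, and Mxi1 by -0.76 at 24 h.

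Markers of other liver cells were measured beside the members, since in bulk tissue fewer cells of a type and less RNA per cell cannot be told apart. At 1 h 6 of 12 macrophage markers rose (0 fell), by 0.21 to 0.34, as did 1 of 8 endothelial, 1 of 10 stellate, 1 of 10 hepatocyte, 0 of 5 biliary and 0 of 10 neutrophil markers. Of all genes 4.47% rose at this time. The mean level of the macrophage list was 7.27 to 8.16 in 1 h remnants and 7.15 to 7.96 in their controls, and that of the endothelial list 6.82 to 7.30 and 6.72 to 7.28. The mean level of the biliary list was 4.20 to 5.70 in 1 h remnants (median 4.48) and 4.23 to 4.77 in their controls (median 4.47). For the stellate list it was 5.96 to 6.61 and 5.86 to 6.18. Among the macrophage markers that rose, Clec4f of Kupffer cells changed most, by 0.34. The part of these shifts in the results was not tested.

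At 6 h 3 of 12 macrophage markers rose and 1 fell, 5 of 8 endothelial and 5 of 10 neutrophil markers rose, and 2 of 10 hepatocyte markers rose and 4 fell. Of all genes 20.0% rose and 19.9% fell at 6 h, and 16.6% and 17.4% at 24 h. The counts of macrophage and hepatocyte markers that rose at 6 h lie near that share. Of 10 stellate markers 1 rose and 5 fell at 6 h (median -0.18), and 3 rose and 3 fell at 24 h. Their mean level was 5.71 to 6.07 in 6 h remnants and 5.86 to 6.36 in the controls of the same animals. Of 5 biliary markers 0 rose at either time, and 1 fell at 6 h. At 24 h 3 macrophage markers rose and 4 fell, 0 endothelial markers rose and 3 fell, 4 neutrophil markers rose and 0 fell, and 0 hepatocyte markers rose and 5 fell. The neutrophil list had a mean level of 3.80 to 4.11 in 6 h remnants and 3.50 to 3.74 in their controls, and of 3.56 to 4.05 in 24 h remnants and 3.56 to 3.68 in theirs. All of these lay below the lowest array median of 4.54, a range not shown to be above background. The hepatocyte list stood at 11.95 to 12.11 in 24 h remnants and 12.05 to 12.36 in controls. The part of these shifts in the later values of Egr1, Junb, Gadd45b and the IER genes was not tested.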

How the data were processed

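Total RNA of freeze-clamped rat liver was extracted with Trizol and RNeasy columns, per the labels' protocols, and measured on Affymetrix Rat Gene 1.0 ST arrays. The deposited values are log2 expression values that the authors had normalized. The submitters' processing notes name RMA and the Affymetrix Expression Console, and no versions. The table used is the one the authors deposited as corrected for batch. How that correction was made is not given in the sources used here.

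Of 29214 probe sets, 15310 had 1 gene in the platform annotation, 323 several and 13581 were not listed. Each of 14506 genes was read from its probe set with the highest mean level. The 34 members and the other gene lists were chosen with earlier results of these data known. All 33 measured members are named, and of other lists the genes with the smallest p.

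For the within-animal changes, the 9 arrays marked as outliers and the second array of the same animals were left out, which leaves 54 arrays of 27 animals. The change (PHx minus control) of each animal was analysed with limma 3.58.1, under R 4.3.3, using 9 groups of diet and time and 18 residual degrees of freedom. Adjusted p-values are Benjamini-Hochberg values over all genes, with 0.05 as the threshold. The labels call the animals biological replicates, and both arrays of 1 animal are paired by its number in the labels.

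Levels before surgery were compared on 29 unmarked control arrays, including those of EtOH 24 h replicate 4 and HF 6 h replicate 2, whose PHx array was marked, with the scan day as a block and 19 residual degrees of freedom. Another 2 CHO control arrays, CHO 1 h replicate 3 and CHO 6 h replicate 1, were left out because their columns in a second deposited table match the PHx array of the same animal (r = 0.985 and 0.992). A PHx array of EtOH 24 h replicate 4, tagged as high fat and marked as an outlier, was not used. The number of arrays limits the precision. Scripts were tested on simulated data. Promoters came from RefSeq, build GRCr8. Alternatives covered the marked arrays, blocks, normalization, probe set choice, array weights, a filter on dim genes and each animal left out.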

Additional observations from a re-analysis of the deposited data

Results flagged for a closer look

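Within groups of 4 to 10 samples, 132 sets of member values were searched for a sample far from the others, and 9 held one, where chance gives about 1 in 20. Groups of that size were, for changes, only the EtOH animals at 1 h and 6 h and, for control levels, only HF and CHO. Where the flags fall among diets was therefore set by the rule.

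Among within-animal changes there were 3. Ccn1 had a change of 3.67 in EtOH 1 h replicate 3, against 1.87 to 1.93 in the other EtOH animals. Plk2 had a change of 0.28 in EtOH 1 h replicate 1, against -0.49 to -0.48 in the others. Ier5 had a change of 0.57 in EtOH 6 h replicate 3, against 0.25 to 0.29 in the others.

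Among control levels there were 6, of which 3 came from the same array. In CHO 1 h replicate 4 the control level was 4.22 for Nr4a2, 3.47 for Nr4a3 and 3.45 for Apold1, against 4.65 to 4.97, 3.83 to 4.10 and 4.10 to 4.56 in the other CHO arrays. Nr4a3 lay at 3.56 in HF 1 h replicate 4, against 3.92 to 4.28. Apold1 lay at 4.87 in HF 1 h replicate 1, against 3.91 to 4.37. Egr3 lay at 5.30 in CHO 1 h replicate 2, against 4.93 to 5.09.

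The test of the difference between EtOH and HF responses at 24 h was passed by Pim3 (1.03) and by Junb (-0.94). The tests between time points were passed by 23 members for 6 h minus 1 h, by 27 for 24 h minus 1 h and by 13 for 24 h minus 6 h.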

How the results depend on the processing

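No alternative reversed a called change at 1 h, and 22 of the 28 rises at 1 h were called in every alternative in which the gene was tested. With single scan days among the alternatives, at most 5 of the 21 calls at 6 h held in every one. No call at 24 h did. Of the 22 short-lived members 18 kept that class in every one of the 36 or 37 alternatives in which they were tested (the filter on dim genes removed 5 of them), and of the 6 that were up at 1 h and 24 h 3 did. Within scan day 3, which held 1 animal, Pim3 had -0.0682 at 6 h. Within scan day 5, which also held 1 animal, Ier5 had -0.28, Pim1 -0.0826 and Nr4a2 0.0728 at 24 h, all against the sign over all animals.

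The count of 10 members called at 24 h in the mean of the diets was 5 within scan day 4 and 0 within scan day 5. The 21 at 6 h were 11 within scan day 1 and 9 within scan day 3. Scan days 3 and 5 hold 1 animal of 1 diet each, which is assumed to vary like the animals of other days. With all 36 animals the counts became 16 instead of 9 for HF at 6 h, 6 instead of 3 for EtOH at 24 h, 6 instead of 10 for HF at 24 h and 8 instead of 4 for CHO at 24 h. With the replicate number as a block across diets the counts were 6 for EtOH and 1 for CHO at 24 h, although the numbers do not pair the diets (21 pairs, r from -0.12 to 0.22, median 0.02). With the scan day as a block CHO at 24 h had 1, and with array weights 2.

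The 2 differences between EtOH and HF at 24 h became 1 with no replicate block, 1 after quantile normalization, 1 with trend and robust variances and 0 with array weights. At 6 h, where 0 were called, EtOH and CHO differed in 1 member with the scan day as a block and in 2 with array weights, and EtOH and HF in 1 with all 36 animals and in 1 with array weights.

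Leaving out 1 animal gave 13 to 22 calls for HF at 1 h (13 without HF 1 h replicate 2), 2 to 11 for HF at 6 h, 2 to 5 for EtOH at 24 h (5 without CHO 24 h replicate 2 or 4), 5 to 10 for HF at 24 h (5 without HF 24 h replicate 1) and 1 to 6 for CHO at 24 h (1 without CHO 24 h replicate 4). For differences between diets it gave 0 to 1 at 6 h for EtOH minus CHO and for EtOH minus HF. At 24 h it gave 0 to 1 for EtOH minus CHO and 0 to 3 for EtOH minus HF. Before surgery it gave 4 to 8 for EtOH minus HF. The cause of these shifts was not tested. The other counts stayed within 1.5 times their value. With 2 to 4 animals in a diet and time, calls within 1 diet at 6 h and 24 h and differences between diets are the least certain results.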

Other observations

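The 9 animals with a marked array were left out of the within-animal changes above, apart from the counts over all 36 animals. Their members moved upward in 28 to 31 of 33 cases in the 2 animals at 1 h, in 23 to 28 in the 3 at 6 h and in 14 to 21 in the 4 at 24 h. HF 1 h replicate 3 had the largest median change, 1.44, with 5.26 for Nr4a1 and 4.21 for Atf3. HF 6 h replicate 2 had a median change of 0.95, with 4.34 for Gadd45b and 1.77 for Nr4a1. Junb lay above 0 in all 9, between 0.74 and 2.40. Egr1 lay between 1.71 and 2.02 in the 4 animals at 24 h.

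Myc did not follow the other early genes in every animal of its time. In HF 6 h replicate 3 and CHO 6 h replicate 2 it lay at -0.44 and -0.52, while Junb lay at 1.25 and 2.19 and Gadd45b at 1.19 and 1.60 in the same animals.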
